A study of Mus musculus with 5 samples.

Results

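Fgf21 and Gdf15 encode secreted hormones of cellular stress, and Fgfr1, Klb and Gfral encode proteins through which cells respond to them. These 5 genes were taken by name from the 52022 genes with a matched transcript in RNA sequencing of brown adipose tissue (BAT). The mice carried floxed alleles of the transcription factor gene Atf4 (ATF4 fl/fl) in both groups. ATF4 BKO mice, titled KO in the sample labels, also carried the Tg(Ucp1-cre)1Evdr transgene, and their controls, called WT, were ATF4 fl/fl mice without Cre. Mice of both groups were on a C57Bl/6J background, male by their labels, 10 to 12 weeks old, fed ad libitum, acclimated to 30 °C and then kept at 4 °C for 3 days. There were 3 ATF4 BKO libraries and 2 WT libraries, each from 1 mouse, so the comparison asks how these hormone and receptor transcripts in cold-exposed BAT differ when Atf4 is deleted. Cre was driven by the Ucp1 promoter, so cells of BAT that do not express Ucp1 keep Atf4, and the WT group does not control for the transgene. No library from mice kept warm or on a fast was analysed here.

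FGF21 is a fibroblast growth factor (FGF) that circulates as a hormone: it signals where a cell has both the FGF receptor FGFR1 and the co-receptor beta-klotho, the product of Klb, and the signal then runs through the ERK kinase pathway. GDF15 is a distant member of the TGF-beta superfamily whose receptor, GFRAL, signals together with the kinase RET and is known from the hindbrain, where it acts on food intake. Both hormones are known products of the integrated stress response, in which ATF4 raises the transcription of its target genes, and BAT is one of the tissues from which FGF21 can be released.

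Total estimated counts per library ranged from 24698337 to 31558111 in ATF4 BKO and from 30996438 to 32452751 in WT. One library went against its label: ATF4 BKO replicate 1 had 4598 counts of Xist, the RNA of the inactive X chromosome, and 33.8 summed counts of 4 Y-linked genes, while the other 4 libraries had at most 7 and at least 3284. The results for the hormones, the receptors and the gene lists are therefore also given without it. All 10 brown adipocyte markers were detected in every library, with summed levels of 16089 to 19069 TPM in ATF4 BKO and 17064 to 19142 TPM in WT. Levels are given as CPM (counts scaled to a common library size by TMM) where libraries are compared. Where genes are compared they are given as TPM (library-scaled levels that also allow for transcript length). Summed marker levels are an exception, given as TPM without TMM scaling also where libraries are compared. Atf4 itself had 32.6, 52.6 and 23.5 CPM in ATF4 BKO replicates 1, 2 and 3 and 286 and 226 CPM in WT replicates 1 and 2. Every ATF4 BKO library lay below both WT libraries. The log2 fold change of Atf4 (ATF4 BKO over WT) was -2.82 (standard error 0.34, edgeR quasi-likelihood adjusted p = 0.671), and without ATF4 BKO replicate 1 it was -2.75. Mitochondrially encoded genes took 21.96%, 18.5% and 19.96% of counts in ATF4 BKO replicates 1, 2 and 3 and 15.6% and 15.1% in WT replicates 1 and 2. This share also separated the genotypes, and its part in the results was not tested.

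By a prefix in the sample names, of unstated meaning, WT replicate 1 goes with ATF4 BKO replicates 1 and 2 (the first prefix) and WT replicate 2 with ATF4 BKO replicate 3 (the second). Skeletal muscle markers also set the libraries apart. The summed level of 22 such markers was 12.8, 28.9 and 6.83 TPM in ATF4 BKO replicates 1, 2 and 3, 95.8 TPM in WT replicate 1 and 2236 TPM in WT replicate 2. All 21 of them that were tested lay lower in every ATF4 BKO library than in both WT libraries, and Tnnt3, Pvalb, Mybpc1, Myot, Ampd1 and Xirp2 were at 0 in at least 1 library. In such bulk samples, fewer cells of a type and less RNA per cell cannot be told apart.

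Among the 5 genes, 4 were detected and tested, and Fgf21 was the one with the clearest genotype difference. Its level was lower in every ATF4 BKO library than in both WT libraries, which holds for 10.6% of the 16450 genes tested. Gdf15, Fgfr1 and Klb overlapped between genotypes, and Gfral had no count in any library. The log2 fold change was below 0 for all 4 tested genes, as for 48.8% of all genes. With edgeR's adjusted p, 0 of the 4 passed the threshold of 0.05 (0% of all genes passed it as lower and 0.00608%, 1 gene, as higher). Atf4, the deleted gene, did not pass it either (edgeR adjusted p = 0.671), so this count says little about the 4 genes. With an unadjusted edgeR p under 0.05 there was 1 of the 4, Fgf21, against 3.42% of all genes as lower, 1.81% as higher and 5.23% in either direction. DESeq2's Wald test, the study's tool, also passed 1, Fgf21, against 0.608% of all genes as lower and 0.128% as higher in ATF4 BKO. Since the WT group holds a single pair of libraries, an exact permutation test of any 1 gene, two-sided with 10 permutations, cannot go below p = 0.1. The p-values measure the spread between these 5 mice alone.

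**Figure D1:**
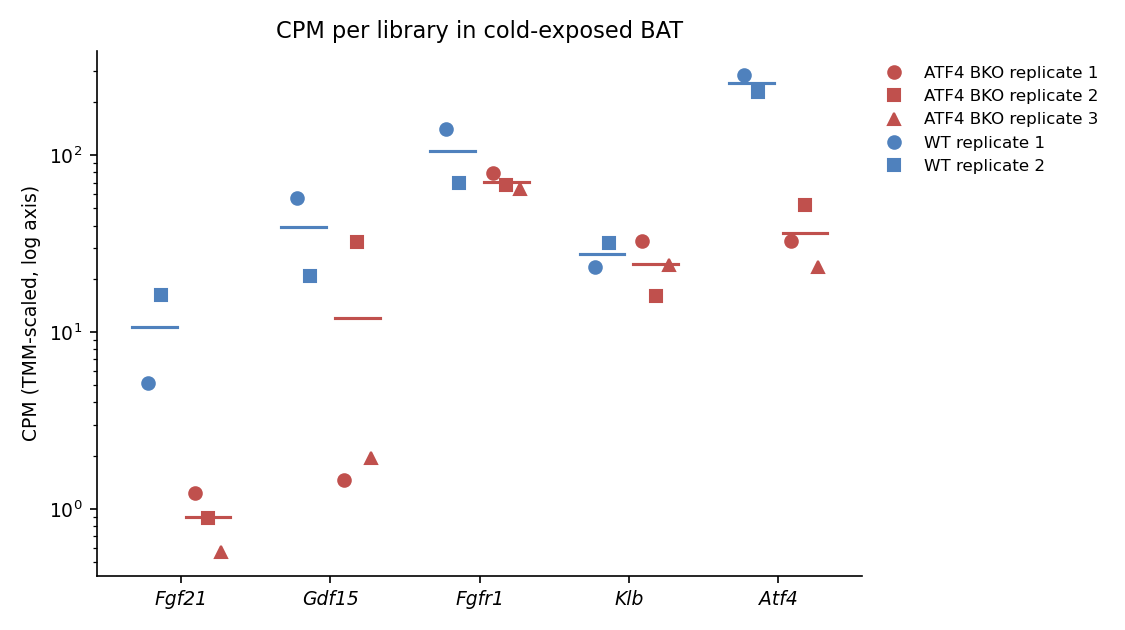
CPM (TMM-scaled, log axis) of Fgf21, Gdf15, Fgfr1, Klb and Atf4 in each library, with red for ATF4 BKO, blue for WT, marker shapes for replicates and horizontal bars for group means. Fgf21 and Atf4 separate by genotype, with Fgf21 between 0.572 and 1.24 CPM in ATF4 BKO against 5.13 and 16.1 CPM in WT, while Gdf15 in ATF4 BKO replicate 2, at 32.4 CPM, lies between both WT libraries.

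Fgf21 (ENSMUSG00000030827.5) lies at chr7:45613886-45615490 on the minus strand of GRCm38, with 1 annotated transcript and no overlapping gene, and none of the 31-base words of its transcript occur in another gene. The 250 bases before its start site, chr7:45615491-45615740 (minus strand, RefSeq, GRCm38.p6), are shown because ATF4 is known to bind C/EBP-ATF response elements (CARE). Both strands of each window were searched for CARE (TGATGNAAN), the cAMP response element (TGACGTCA), the E-box (CACGTG) and the antioxidant response element (TGACNNNGC). Of 32851 such windows of all RefSeq genes, 3.44% hold a CARE match, 1.55% a cAMP response element, 6.02% an E-box and 10.2% an antioxidant response element. The window of Fgf21 holds 1 CARE match, in capitals, at 140 to 132 bases before the start site and read on the opposite strand, and 1 E-box at 50 to 45 bases before it, which does not overlap the CARE match. Gdf15 (ENSMUSG00000038508.7, chr8:70629393-70632456, minus strand) has a pair of start sites in RefSeq. The window of the upstream one, chr8:70632457-70632706, is shown for contrast and has 0 matches, so it has no capitals.
Fgf21: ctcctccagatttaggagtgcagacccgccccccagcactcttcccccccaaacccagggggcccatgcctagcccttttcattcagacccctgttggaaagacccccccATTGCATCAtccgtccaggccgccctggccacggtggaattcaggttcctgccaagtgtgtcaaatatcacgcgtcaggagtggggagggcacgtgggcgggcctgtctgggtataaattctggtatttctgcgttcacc
Gdf15: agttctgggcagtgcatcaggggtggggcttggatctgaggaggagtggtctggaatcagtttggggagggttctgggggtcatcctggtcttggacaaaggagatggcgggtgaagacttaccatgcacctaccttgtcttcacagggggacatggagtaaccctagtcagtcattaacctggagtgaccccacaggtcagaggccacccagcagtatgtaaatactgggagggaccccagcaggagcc
The window of the second Gdf15 start site (chr8:70632096-70632345) holds an E-box at 83 to 78 bases before the start. The window of Klb holds an antioxidant response element match at 67 to 59 bases before the start, and that of Gfral has 0 matches. These are letter matches in a fixed window and not measured binding.

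The Fgf21 transcript had 28, 25 and 17 counts in ATF4 BKO replicates 1, 2 and 3 and 162 and 546 counts in WT replicates 1 and 2. In CPM these were 1.24, 0.890 and 0.572 against 5.13 and 16.1. The 3 ATF4 BKO libraries were close together and the genotypes did not overlap, but the WT libraries differed from each other by a ratio of 3.14. Counting error was smaller than the gap. The exact Poisson 95% interval was 18.6 to 40.5 counts for the highest ATF4 BKO count and 138 to 189 for the lower WT count (such intervals cover counting error only).

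Mean Fgf21 was 0.900 ± 0.332 CPM in ATF4 BKO (SD, n = 3) and 10.6 ± 7.76 CPM in WT (SD, n = 2), which is 11.8 times as much in WT. The log2 fold change was -3.57 (standard error 0.57, 95% interval -4.96 to -2.18), with an edgeR quasi-likelihood p of 7.29e-04 and an adjusted p of 0.671. DESeq2 gave -3.57 with an adjusted p of 7.26e-06. Over 18 alternative settings the value was negative in 18 and passed the threshold in 2, DESeq2 and the fit without WT replicate 1 (-4.16, edgeR adjusted p = 0.0484). By an exact permutation test, the difference in mean log2 CPM was -3.30 (two-sided p = 0.1, the smallest possible). Within the first name prefix the difference was -2.22 and within the second it was -4.66. Without ATF4 BKO replicate 1 the log2 fold change was -3.85 (edgeR adjusted p = 0.974).

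Skeletal muscle is a tissue that can itself express Fgf21, and its markers moved with Fgf21 across the genotypes. WT replicate 2, the library with the most Fgf21, had 23.3 times the muscle marker level of WT replicate 1 and 3.14 times its Fgf21. WT replicate 1 had 3.31 times the muscle marker level of the highest ATF4 BKO library and 4.15 times the highest ATF4 BKO value of Fgf21. Among ATF4 BKO libraries the order was not shared: replicate 2 had the highest muscle markers (28.9 TPM summed) and replicate 1 the highest Fgf21. Without WT replicate 2, the log2 fold change of Fgf21 was -2.53, and with muscle markers entered as a covariate it was -1.54 (edgeR adjusted p = 0.427). Muscle markers also separated the genotypes, so the covariate fit cannot set muscle RNA apart from genotype. How much of the difference in Fgf21 goes with muscle RNA was not tested beyond these values.

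The 5 tested genes whose centred log2 CPM profiles lay nearest to that of Fgf21 over the 5 libraries were Tmod4, Abra, Ankrd2, Jsrp1 and 2310002L09Rik. Their root mean square distances from Fgf21 ran from 0.4496 to 0.544 on the log2 scale, where the median distance over all genes was 1.74. None of the 5 was on the muscle marker list, though Tmod4, Abra, Ankrd2 and Jsrp1 are known genes of striated muscle. Tmod4, the nearest, had 0.486, 0.356 and 0.168 CPM in ATF4 BKO replicates 1, 2 and 3 and 0.918 and 6.34 CPM in WT replicates 1 and 2. All 5 were low in ATF4 BKO. There 2310002L09Rik, the lowest, had 0, 0.036 and 0 CPM in replicates 1, 2 and 3, and Ankrd2, the highest, 0.883, 0.392 and 0.471 CPM. At such levels the log2 values rest in part on the prior count of 2 added before the log, which limits what their closeness shows. Likeness over 5 libraries, in 2 groups, is a description with no test.

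**Figure D2:**
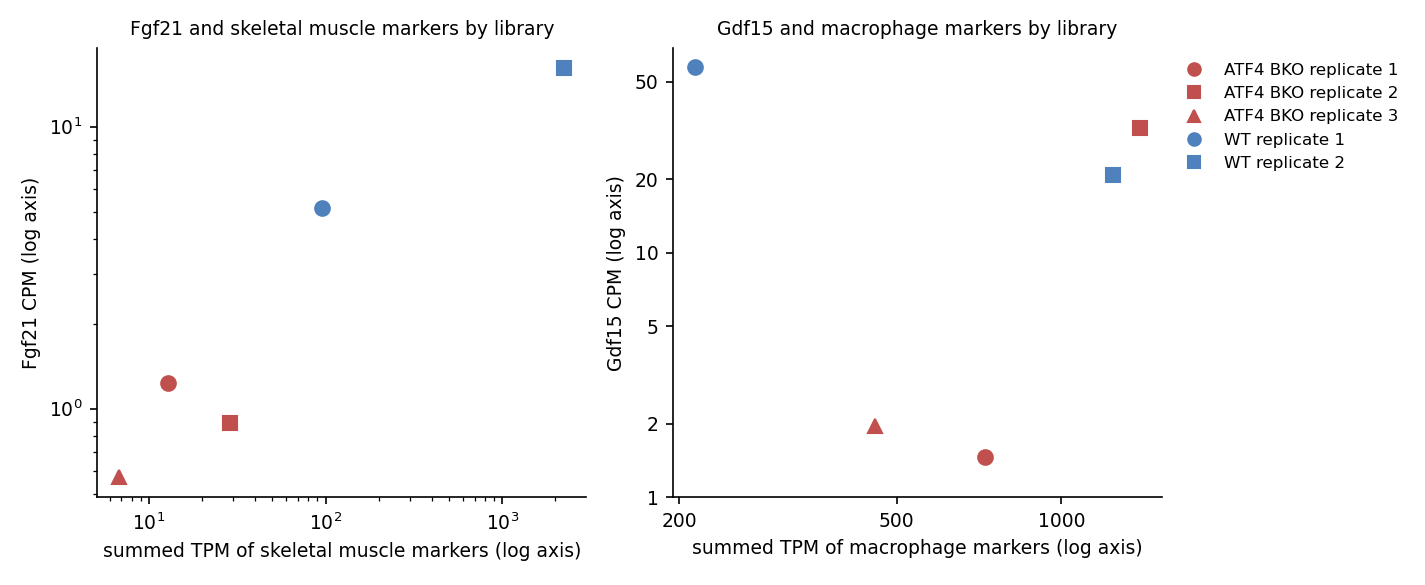
Left, CPM of Fgf21 against the summed TPM of 22 skeletal muscle markers; right, CPM of Gdf15 against the summed TPM of 10 macrophage markers; all axes are log axes and each point is 1 library, red for ATF4 BKO and blue for WT. WT replicate 2 is highest for both Fgf21 (16.1 CPM) and muscle markers (2236 TPM), while WT replicate 1 has the highest Gdf15 (57.4 CPM) and the lowest macrophage markers (214 TPM).

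Gdf15 showed the widest spread of the detected genes among ATF4 BKO libraries. Its counts were 33, 911 and 58 in ATF4 BKO replicates 1, 2 and 3 and 1814 and 708 in WT replicates 1 and 2. In CPM these were 1.46, 32.4 and 1.95 against 57.4 and 20.9. Replicates 1 and 3 of ATF4 BKO lay far below both WT libraries, and replicate 2 lay between them, so the genotypes overlapped. The mean was 11.9 ± 17.7 CPM in ATF4 BKO (SD, n = 3) and 39.2 ± 25.8 CPM in WT (SD, n = 2), so the SD exceeded the mean in ATF4 BKO.

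The log2 fold change of Gdf15 was -1.71 (standard error 1.28, 95% interval -4.84 to 1.43, edgeR quasi-likelihood adjusted p = 0.930), and DESeq2's adjusted p was 1.00. It was negative in 18 of 18 alternatives and passed the threshold in 0. ATF4 BKO replicate 2 decided its size. Without that library the log2 fold change was -4.497 with an unadjusted edgeR p of 8.89e-04 and an adjusted p of 0.704, and without WT replicate 1 it was -0.82. The exact permutation test gave a difference of -2.90 in mean log2 CPM (two-sided p = 0.3), and the differences within the name prefixes were -3.03 and -3.37. Without ATF4 BKO replicate 1 the log2 fold change was -1.19 (edgeR adjusted p = 0.984).

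ATF4 BKO replicate 2 was thus examined further, after its Gdf15 value had been seen. Its Atf4 level, 52.6 CPM, was the highest of the ATF4 BKO libraries, at 1.87 times the mean of the other two, and lay well below both WT libraries. Gdf15 was 19.0 times the mean of ATF4 BKO replicates 1 and 3, and 0.828 times the WT mean. Fgf21 was not high there, at 0.984 times that ATF4 BKO mean. Atf3, a stress-induced transcription factor, was also high in that library, with 46.1 CPM against 10.6 and 11.8 CPM in replicates 1 and 3 and 58.9 and 42.6 CPM in WT.

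With 0.1 CPM added to each value, the median ratio of replicate 2 to the mean of ATF4 BKO replicates 1 and 3 was 1.52 over 20 known targets of the integrated stress response (range 0.613 to 4.07, the highest being Atf3) and 1.04 over all 16450 genes. Of these targets 16 were highest in replicate 2 among ATF4 BKO libraries, as were 43.5% of all genes. The ratio of Gdf15 on this scale, 18.02, was reached or exceeded by 5 genes including itself. The other 4 were Myh4, the gene of a fast muscle myosin, Trim63, a ubiquitin ligase of muscle, and the gene models Gm10123 and Gm20390. Macrophages can also express Gdf15, and their 10 markers summed to 725, 1391 and 456 TPM in ATF4 BKO replicates 1, 2 and 3 and to 214 and 1241 TPM in WT replicates 1 and 2. None of the 10 was at 0 in any library. Thus macrophage markers were highest in ATF4 BKO replicate 2 and lowest in WT replicate 1, the library with the most Gdf15, and their part in the result was not tested.

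Gdf15 has a pair of annotated transcripts. Gdf15-202, whose first base in GENCODE (70632456) adjoins the window printed above, took 100%, 97.3% and 100% of Gdf15 counts in ATF4 BKO replicates 1, 2 and 3 and 95.1% and 89.6% in WT replicates 1 and 2. Gdf15-201 had 24.5 estimated counts in ATF4 BKO replicate 2, 0 in replicates 1 and 3, and 89.4 and 73.4 in WT. Kallisto splits reads that fit both transcripts, so these shares are estimates, and no 31-base word of either occurs in another gene.

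The 5 genes with profiles nearest to Gdf15 were Myc, Sprr1a, Scd3, Slc30a2 and Soat2, at root mean square distances of 0.767 to 0.996 on the log2 scale (median over all genes 2.16). Myc, a growth-related transcription factor, had 4.505, 37.1 and 6.94 CPM in ATF4 BKO replicates 1, 2 and 3 and 54.7 and 26.3 CPM in WT replicates 1 and 2. Scd3, a fatty acid desaturase, had 1.24, 5.59 and 1.01 CPM against 13.3 and 3.81. In both, ATF4 BKO replicate 2 lay above the WT library with the lower value. Sprr1a, Slc30a2 and Soat2 were low, with 0, 0.044 and 0.132 CPM in ATF4 BKO replicate 1, so the same limit of the prior count holds for them. All 5 genes were again chosen by their likeness and carry no test.

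Fgfr1 (ENSMUSG00000031565.18, chr8:25513654-25575718, plus strand) is the receptor tyrosine kinase that FGF21 uses together with beta-klotho. It had 79.5, 67.7 and 64.4 CPM in ATF4 BKO replicates 1, 2 and 3 and 141 and 69.6 CPM in WT replicates 1 and 2. WT replicate 1 stood alone, while WT replicate 2 lay within the ATF4 BKO range. Means were 70.6 ± 7.91 CPM in ATF4 BKO (SD, n = 3) and 105 ± 50.6 CPM in WT (SD, n = 2). The log2 fold change was -0.58 (standard error 0.30, 95% interval -1.30 to 0.14, edgeR quasi-likelihood adjusted p = 0.911; exact permutation two-sided p = 0.2).

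The direction for Fgfr1 rested on WT replicate 1, as the log2 fold change without that library was 0.03. With muscle markers entered as a covariate it was -1.49 (edgeR adjusted p = 0.168), and without WT replicate 2 it was -1.01. As for Fgf21, the covariate fit cannot set muscle RNA apart from genotype. Within the name prefixes the differences in mean log2 CPM were -0.94 and -0.11. Without ATF4 BKO replicate 1 the log2 fold change was -0.67.

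Of 19 annotated transcripts of Fgfr1, 5 held at least 5% of its counts on average and 4 were at 0 in every library. Among the protein-coding ones, Fgfr1-203 took 23.1% ± 5.52 of counts in ATF4 BKO (SD, n = 3) and 27.8% ± 2.79 in WT (SD, n = 2). For Fgfr1-201 the shares were 22.9% ± 2.61 and 20.7% ± 4.09, and for Fgfr1-213 they were 22.8% ± 2.52 and 23.1% ± 2.30. These shares overlapped between genotypes. Transcripts with a retained intron took 18.8%, 18.1% and 21.2% in ATF4 BKO replicates 1, 2 and 3 and 12.5% and 17.1% in WT replicates 1 and 2, the lowest in the WT library with the most Fgfr1. A total of 3.75% of the 31-base words of Fgfr1 occur in other genes, among them Gm16159 on the opposite strand, which had at most 2.05 counts in any library.

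Klb (ENSMUSG00000029195.10, chr5:65348314-65384007, plus strand), the co-receptor that makes FGFR1 able to bind FGF21, had 32.6, 16.1 and 24.1 CPM in ATF4 BKO replicates 1, 2 and 3 and 23.2 and 31.8 CPM in WT replicates 1 and 2. The WT values lay inside the ATF4 BKO range. Means were 24.3 ± 8.28 CPM in ATF4 BKO (SD, n = 3) and 27.5 ± 6.06 CPM in WT (SD, n = 2). The log2 fold change of -0.18 had a standard error of 0.31, a 95% interval of -0.94 to 0.58 and an edgeR quasi-likelihood adjusted p of 0.964 (exact permutation two-sided p = 0.7). It turned to 0.06 without ATF4 BKO replicate 2 and to 0.05 without WT replicate 2, and was -0.45 without ATF4 BKO replicate 1. The differences within the name prefixes were -0.02 and -0.40. Klb-201 took 97.8% to 99.7% of Klb counts in each library.

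Gfral (ENSMUSG00000059383.14, chr9:76164102-76213657, minus strand), the receptor of GDF15, had 0 counts of either transcript in all 5 libraries. A count of 0 allows up to 3 counts (a one-sided 95% limit), which at these depths is 0.0885 to 0.132 CPM, and the exact two-sided 95% interval reaches 3.69 counts, or 0.109 to 0.163 CPM, so the gene was not detectable at this depth, and no test was made. Ret, the kinase with which GFRAL signals, was detected at 4.55, 4.52 and 3.37 CPM in ATF4 BKO replicates 1, 2 and 3 and at 5.48 and 4.96 CPM in WT replicates 1 and 2. Every ATF4 BKO value of Ret lay below both WT values, as for 10.6% of all genes tested. Its log2 fold change was -0.33, with an unadjusted p of 0.219 (edgeR quasi-likelihood, adjusted p = 0.927).

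Per length, the order of the detected genes in WT was Fgfr1, Gdf15, Fgf21 and Klb, with means of 50.1 ± 24.98, 40.4 ± 25.7, 17.7 ± 13.4 and 10.3 ± 2.64 TPM (SD, n = 2). Neighbours in this order overlapped between libraries, as Fgf21 had 8.27 and 27.2 TPM in WT replicates 1 and 2, and Klb had 8.46 and 12.2 TPM. In ATF4 BKO the order was Fgfr1, Gdf15, Klb and Fgf21, with means of 26.6 ± 3.44, 11.8 ± 17.8, 7.97 ± 2.32 and 1.31 ± 0.45 TPM (SD, n = 3). There, the highest Fgf21 value, 1.71 TPM, lay below the lowest Klb value, 5.71 TPM, and Klb lay below Fgfr1 in every library. Mean Fgf21 exceeded that of 70.2% of tested genes in WT and 25.8% in ATF4 BKO. For Fgfr1 these were 87.0% and 79.9%, for Gdf15 84.0% and 64.6%, and for Klb 58.7% and 56.2%.

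**Figure D3:**
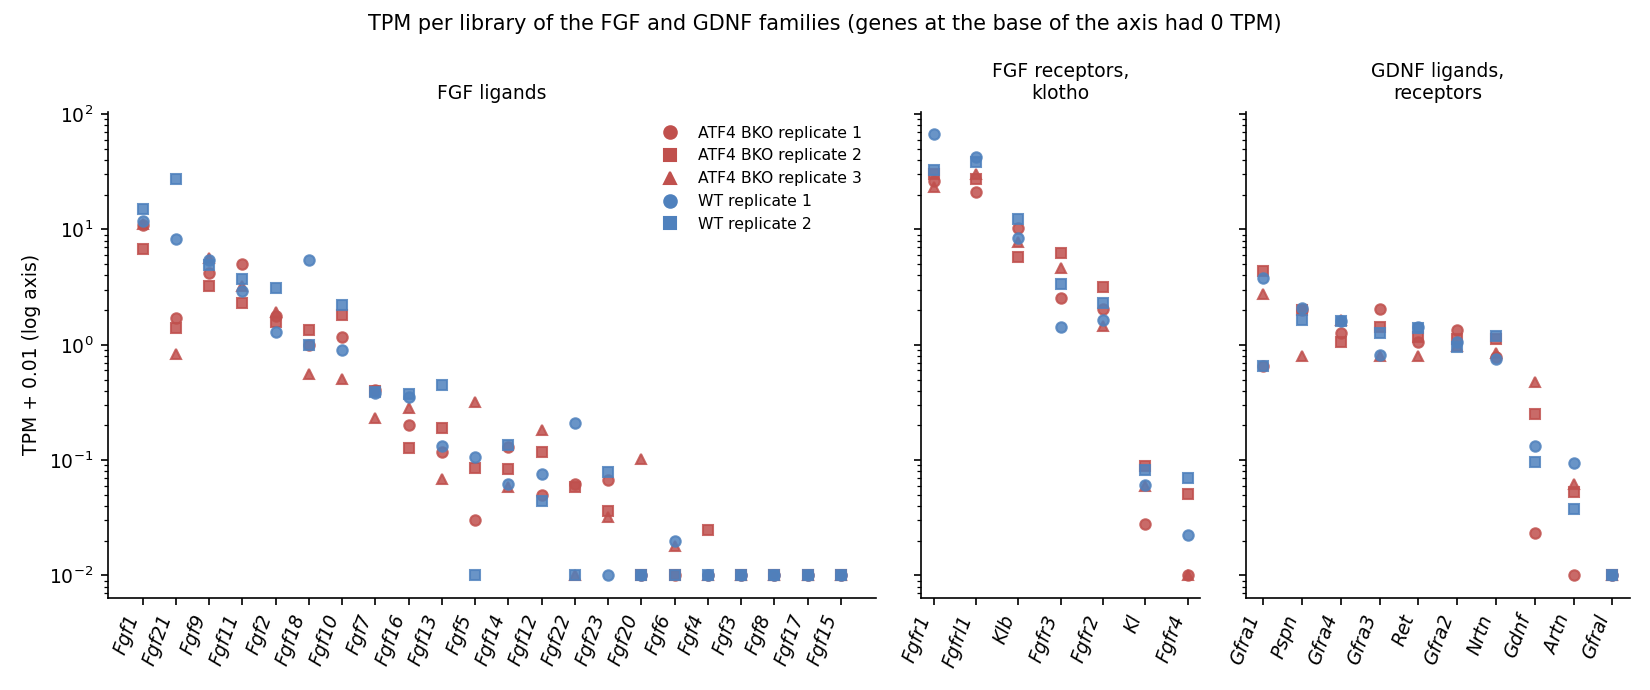
TPM plus 0.01 (log axis) of 22 FGF ligands, 7 FGF receptors and klotho co-receptors, and 10 GDNF ligands and receptors, ordered within each panel by their mean, with red for ATF4 BKO, blue for WT and marker shapes for replicates. Among the 9 tested ligands Fgf21 has the genotypes that lie farthest apart, Fgfr1 leads the receptors by its mean but not in every library, and Gfral sits at 0 in all 5 libraries.

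Differences among the FGF ligands went in both directions, near the share of all genes. Of 22 FGF ligand genes, 9 were tested, of which 5 had a negative and 4 a positive log2 fold change, with a median of -0.25 (0.01 over all genes). Over all genes 48.8% were negative, the share to set beside this list and those that follow. Fgf21 was the single one of the 9 ligands with an unadjusted edgeR p under 0.05 or a DESeq2 adjusted p under 0.05. Of all genes, 5.23% had such an edgeR p in either direction, and DESeq2 passed 0.608% as lower and 0.128% as higher. Fgf1 was the most abundant ligand over all 5 libraries, at a mean of 11.2 TPM, but in WT it had 13.5 ± 2.33 TPM (SD, n = 2) and Fgf21 had 17.7. It had 31.3 ± 9.95 CPM in ATF4 BKO (SD, n = 3) and 37.5 ± 4.94 CPM in WT (SD, n = 2), and the log2 fold change of Fgf1 was -0.26 (standard error 0.29). Among the 7 FGF receptors and klotho co-receptors, 6 were tested, 4 were negative, the median was -0.21, and none had an unadjusted edgeR p under 0.05 or passed with DESeq2. Fgfr1 was the most abundant of these, at a mean of 36.0 TPM, though Fgfrl1, a receptor without a kinase domain, exceeded it in ATF4 BKO replicate 3 (30.4 against 23.3 TPM) and WT replicate 2 (38.2 against 32.5 TPM). Fgfrl1 was the 1 of the 6 that lay lower in every ATF4 BKO library than in both WT libraries, as did 10.6% of all genes (log2 fold change -0.36, standard error 0.15).

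Downstream of the receptors, 1 of 18 and 2 of 20 genes had an unadjusted edgeR p under 0.05, against 5.23% of all genes in either direction. Of 18 genes of the relay from FGF receptors to ERK, all were tested, 10 were negative and the median log2 fold change was -0.02. Sos2, an exchange factor that activates RAS, was the single one with an unadjusted edgeR p under 0.05 (log2 fold change -0.42, standard error 0.12). Of 20 genes that respond to ERK or restrain it, 11 were negative, with a median of -0.02. Those with an unadjusted edgeR p under 0.05 were Dusp4, a phosphatase of ERK (log2 fold change -0.52, standard error 0.14), and Fos, an immediate early gene. Fos had 13.2, 13.6 and 19.2 CPM in ATF4 BKO replicates 1, 2 and 3 and 3.51 and 9.35 CPM in WT replicates 1 and 2, a log2 fold change of 1.25 (standard error 0.44). None of these genes passed with DESeq2 or after adjustment.

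Among 20 extracellular partners of FGFs, 18 were tested and 7 were negative, with a median log2 fold change of 0.09. Gpc4, a cell-surface heparan sulfate proteoglycan, was the single one with an unadjusted edgeR p under 0.05 (log2 fold change -0.65, standard error 0.21), a share near the 5.23% of all genes. All 6 genes of proteases that act on FGF21, GDF15 or GFRAL were positive, as were 8425 of the 16450 genes tested. Their median was 0.27, and none had an unadjusted edgeR p under 0.05. Of 8 genes that FGF21 is known to raise in adipocytes, 6 were positive and the median was 0.18. The single one of these with an unadjusted edgeR p under 0.05 was Adipoq, against 5.23% of all genes in either direction. Adipoq, the gene of the adipocyte hormone adiponectin, had 341, 287 and 379 CPM in ATF4 BKO replicates 1, 2 and 3 and 203 and 256 CPM in WT replicates 1 and 2. Its log2 fold change of 0.55 (standard error 0.19) had an unadjusted edgeR p of 0.0255 and did not pass after adjustment (adjusted p = 0.911). For Ucp1, of the same list and the gene whose promoter drives Cre, this value was 0.17 (standard error 0.24).

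In the families of GDF15 and its receptor, no gene passed after adjustment or with DESeq2. Of 10 GDNF ligands and receptors, 8 were tested, 3 were negative and the median log2 fold change was 0.16. Gfra2, the receptor of neurturin, was the single one of the 8 with an unadjusted edgeR p under 0.05, against 5.23% of all genes. Its log2 fold change was 0.73 (standard error 0.26), and every ATF4 BKO library lay above both WT libraries, as for 8.95% of all genes. The most abundant, Gfra1, varied within groups, with 2.69, 14.0 and 9.80 CPM in ATF4 BKO replicates 1, 2 and 3 and 13.3 and 1.98 CPM in WT replicates 1 and 2. Of 30 ligands of the TGF-beta superfamily, 19 were tested, 9 were negative and the median was 0.05. Bmp6, a bone morphogenetic protein, was the single one of these with an unadjusted edgeR p under 0.05 (log2 fold change 0.75, standard error 0.22), again a share near the 5.23% of all genes.

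Of the pathway lists, the one of stress response targets had the most negative median. All 18 transcription factors known to act on Fgf21 or Gdf15 were tested, 9 were negative, and the median log2 fold change was -0.01. Those with an unadjusted edgeR p under 0.05 were Atf4, Atf5 (-1.73, standard error 0.23), which belongs to both lists, and Trp53 (-0.69, standard error 0.26), the gene of the p53 tumour suppressor. These are 3 of 18, against 3.42% of all genes as lower. Of the 18, 2 passed with DESeq2, Atf4 and Atf5, against 0.608% of all genes as lower. Both counts include Atf4, the deleted gene, whose lower level was set by the design. Of the 20 stress response targets, 18 were negative, with a median of -1.30, and 13 had an unadjusted edgeR p under 0.05, against 3.42% of all genes in that direction. Every ATF4 BKO library lay below both WT libraries for 13, against 10.6% of all genes, and 0 of the 20 passed with edgeR's adjusted p. The 2 positive ones were Stc2 and Ddit4, at 0.23 and 0.92. This list, like the others, was chosen with earlier results of these data known, so its counts are a description and no independent test.

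By DESeq2's adjusted p, 8 of the 20 passed, against 0.608% of all genes as lower, namely Asns, Chac1, Trib3, Atf5, Mthfd2, Psat1, Phgdh and Cth. Mthfd2, a mitochondrial enzyme of folate metabolism, had 3.67, 6.09 and 3.23 CPM in ATF4 BKO replicates 1, 2 and 3 and 61.9 and 25.6 CPM in WT replicates 1 and 2, a log2 fold change of -3.33 (standard error 0.45). Phgdh and Psat1, of serine synthesis, had -2.81 and -2.40, Chac1, which degrades glutathione, -2.44, and Trib3, a pseudokinase induced by stress, -2.27. Asns, asparagine synthetase, had -1.44 and Cth, of cysteine synthesis, -1.69. The others with an unadjusted edgeR p under 0.05 were the amino acid transporters Slc7a5 (-2.01) and Slc7a11 (-1.82), Pck2 (-0.88), Shmt2 (-0.69) and Nupr1 (-0.47). Without ATF4 BKO replicate 1, 19 of the 20 were negative and 10 had an unadjusted edgeR p under 0.05, against 4.87% of all genes in either direction. Without WT replicate 2 these numbers were 18 and 13, against 12% of all genes.

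Without ATF4 BKO replicate 1, an alternative for these genes and lists that was chosen after seeing the data, the following genes named above kept their direction. The unadjusted edgeR p stayed under 0.05 for Sos2 (0.0371), Dusp4 (0.0367), Fos (0.0462), Gpc4 (0.0427), Bmp6 (0.00248), Atf4 (0.00144) and Atf5 (0.00185), while it was 0.0641 for Adipoq, 0.084 for Gfra2 and 0.101 for Trp53. Without that library, Fgfrl1 had a log2 fold change of -0.28, Ret of -0.40, Fgf1 of -0.41 and Ucp1 of 0.10. The number of negative values became 7 of 9 FGF ligands, 3 of 6 receptors and klotho co-receptors, 9 of 18 relay genes, 10 of 20 ERK-responsive genes, 8 of 18 extracellular partners and 8 of 18 transcription factors. It became 10 of 19 TGF-beta superfamily ligands, whose median turned to -0.01. It did not change for the proteases (0), the GDNF family (3) and the genes that FGF21 raises (2). The medians of the relay and ERK-responsive genes turned to 0.01 and 0.02, and that of the transcription factors to 0.06. Over all genes in this fit, 8085 of 16320 were negative, with a median of 0.004.

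Relative to the WT mean on the scale of log2 (CPM + 0.1), Fgf21 was at -3.003, -3.44 and -3.99 in ATF4 BKO replicates 1, 2 and 3, and Mthfd2 at -3.54, -2.82 and -3.72. Fgf21 was thus the lower of both in replicates 2 and 3 and the higher in replicate 1. Mthfd2, Phgdh and Psat1 were higher in WT replicate 1, while Fgf21 was higher in WT replicate 2. Of the targets, Slc3a2, Sesn2, Vldlr, Stc2, Ddit4 and, by little, Nupr1 were also higher in WT replicate 2. The rest were higher in WT replicate 1. Gdf15 was at -4.66, -0.27 and -4.26, below all 20 targets in replicates 1 and 3.

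**Figure D4:**
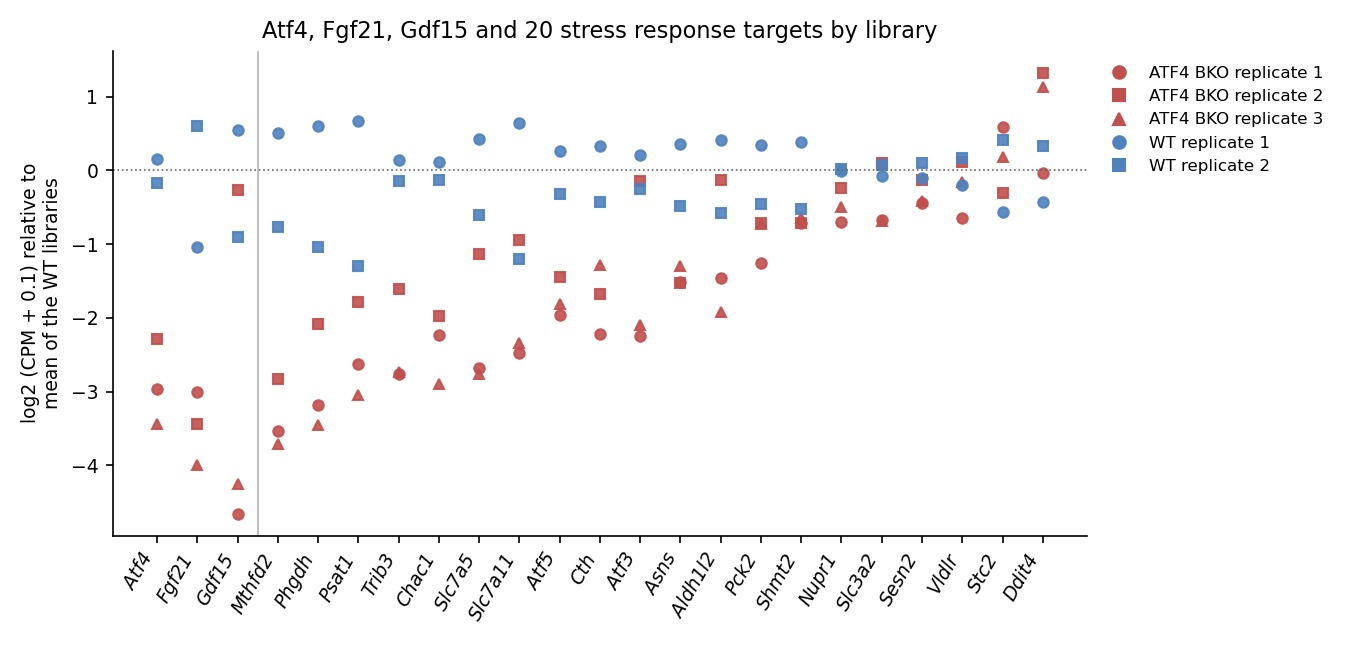
Log2 (CPM + 0.1) of each library minus the log2 of the WT mean for Atf4, Fgf21, Gdf15 and, right of the vertical line, 20 targets of the integrated stress response ordered by their ATF4 BKO level, with red for ATF4 BKO, blue for WT and marker shapes for replicates. Gdf15 is the gene with the widest gap between ATF4 BKO replicate 2 and the other ATF4 BKO replicates.

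Across the alternative settings the log2 fold change of Fgf21 lay between -4.16 and -1.54 and that of Gdf15 between -4.497 and -0.82. Those of Fgfr1 and Klb crossed 0, with 17 and 16 of 18 values negative.

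**Figure D5:**
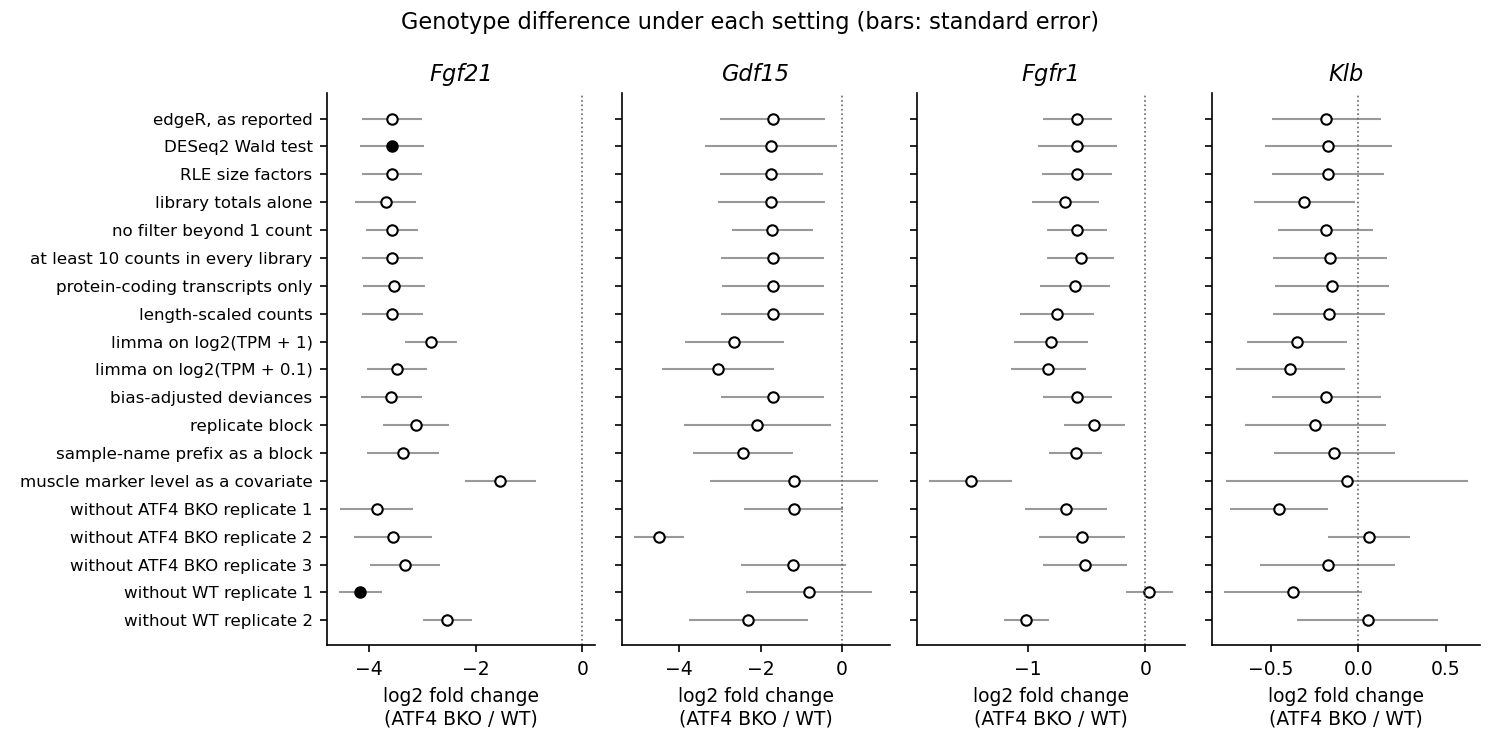
Log2 fold change (ATF4 BKO over WT) of Fgf21, Gdf15, Fgfr1 and Klb as reported and under 18 alternatives, with bars for the standard error and filled points where the adjusted p was under 0.05; each panel has its own scale. Every value of Fgf21 and Gdf15 is below 0, and the filled points are those of Fgf21 with DESeq2 and without WT replicate 1.

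Of the remaining marker lists, none separated the genotypes by summed level. Levels in ATF4 BKO and WT were 12533 to 15226 and 12888 to 14079 TPM for adipocyte, 329 to 416 and 302 to 383 TPM for endothelial and 114 to 152 and 149 to 164 TPM for Schwann cell markers. They were 25.9 to 60.1 and 51.1 to 64.2 TPM for white adipocyte markers, of which Hoxc10 was at 0 in every library. For fibroblast and progenitor markers they were 264 to 793 and 320 to 615 TPM. They were 3.12 to 4.59 and 2.20 to 5.04 TPM for B and T cell markers and 4.57 to 6.07 and 3.65 to 7.15 TPM for hepatocyte markers. By direction, 48.8% of all tested genes had a negative log2 fold change. This was 0 of 10 macrophage, 0 of 8 endothelial, 0 of 8 fibroblast and progenitor and 0 of 6 B and T cell markers. It was 1 of 6 adipocyte, 1 of 4 Schwann cell, 2 of 3 hepatocyte and 3 of 4 white adipocyte markers that were tested. What part cell content had in this was not tested.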

How the data were processed

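BAT libraries of 3 ATF4 BKO and 2 WT mice (stranded mRNA, mm10) were pseudo-aligned with Kallisto 0.45.0 by the authors, who deposited estimated counts and TPM per transcript. The TPM were computed by the authors' counter from estimated counts and effective transcript lengths. The transcript annotation is not given in the sources used here, and the other workflow of the study, by genome alignment, was not analysed here.

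Estimated counts were summed per gene with GENCODE M21 (GRCm38; 138191 of 141450 transcripts matched, and the rest held 1.16% to 1.29% of counts) and rounded. Chi-square values between libraries of 1 group were 52.9 or more per degree of freedom, so each library was counted. Genes reaching 10 counts in 2 or more libraries (16450) were tested with edgeR 4.0.16 (R 4.3.3; TMM, quasi-likelihood test, Benjamini-Hochberg, threshold 0.05). DESeq2 1.42.0 and limma 3.58.1 were alternatives, and the edgeR and DESeq2 fits were tested on simulated data. Standard errors are the size of the log2 fold change divided by the square root of F.

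The 5 genes and all lists (254 symbols, 254 matched) were chosen with earlier results of these data known. The text names the 5 genes, Atf4, listed genes with an unadjusted edgeR p or a DESeq2 adjusted p under 0.05, the most abundant of each receptor and ligand family, and the 5 genes of nearest profile. Ret, Fgfrl1, Atf3, Ucp1, Stc2, Ddit4, Slc3a2, Sesn2, Vldlr and the genes high in ATF4 BKO replicate 2 were named after their values were seen. Promoter windows are from RefSeq.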

Additional observations from a re-analysis of the deposited data

Results flagged for a closer look

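ATF4 BKO replicate 1 had 4598 counts of Xist, a gene outside the comparison, where the other libraries had at most 7, although its label gives the mouse as male. Without it, Fgf21 had a log2 fold change of -3.85, against -3.57 with it.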

How the results depend on the processing

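Over 18 alternatives, the log2 fold changes of Fgf21 and Gdf15 were negative in 18 each, of Fgfr1 in 17 and of Klb in 16. Fgf21 passed the threshold with DESeq2 (-3.57, adjusted p = 7.26e-06) and without WT replicate 1. Leaving out each library gave -4.16 to -2.53 for Fgf21, -4.497 to -0.82 for Gdf15, -1.01 to 0.03 for Fgfr1 (reversed, at 0.03294, without WT replicate 1) and -0.45 to 0.06 for Klb (reversed at 0.06221 without ATF4 BKO replicate 2 and 0.05 without WT replicate 2). The cause was not tested. Across all genes, edgeR called 1 gene, DESeq2 121, a filter of 1 count 8, at least 10 counts in every library 0, limma 0 with 1 TPM added before log2 and 2 with 0.1 TPM added, the name prefix as a block 0, the muscle covariate 211 (8 lower, 203 higher), and leaving out 1 library 0 to 23 (0 without any 1 ATF4 BKO replicate, 23 without WT replicate 1). At an unadjusted p under 0.05 there were 860 with edgeR, 721 with the stricter filter, 1431 with limma and 1 TPM added and 876 with the prefix block and 376 to 1916 with 1 library left out. The limma fits moved the median of all genes to -0.12 and -0.17. The muscle covariate also separated the genotypes, so its fit cannot set muscle RNA apart from genotype.

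With a replicate block, the number of called genes was 0 (711 had an unadjusted p under 0.05) and Fgf21 was -3.12. Between same-numbered libraries, deviations from the mean, and not the levels themselves, correlated at 0.05 and 0.20 over 2 pairs. The libraries numbered 1 also share the first name prefix. What else same-numbered libraries share was not tested.

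With 2 WT libraries, the spread of WT rests on 1 pair. The low Fgf21 counts, 17 to 28 in ATF4 BKO, limit its lower level.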
